A study of Homo sapiens with 6 samples.

Results

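TFIIH is a multi-subunit factor that works both in the start of transcription by RNA polymerase II and in nucleotide excision repair of DNA. The genes described are its 10 subunits, of 20263 genes in the deposited tables, and all 10 were found by their current symbols. They comprise 7 genes of the core module (ERCC3, ERCC2, GTF2H1, GTF2H2, GTF2H3, GTF2H4 and GTF2H5) and 3 genes of the kinase module (CDK7, CCNH and MNAT1). The set was picked because several GTF2H genes were lower in this same comparison, so the fold changes of its members, and how many of them passed the call used for all genes, are given as a description that supports nothing.

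Total RNA was sequenced from cells labelled as LNCaP, an established human prostate cancer line described as hormone-dependent. In the labels, 3 libraries came from cells given a LINC01518 overexpression vector and 3 from cells given an empty vector. LINC01518 is transcribed into RNA that is not known to code for protein. The design text of the series instead gives MEG3, another such RNA, as the transfected insert, and the groups are called here as the sample labels call them. Neither RNA was analysed here, and the sources used here give neither the vector's promoter nor the time after transfection. No label ties the 3 replicates to independent cultures, so a p-value reflects only library-to-library spread, possibly technical.

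As background, the core module holds a pair of helicase-type enzymes, XPB (encoded by ERCC3) and XPD (ERCC2), on a scaffold built from the GTF2H proteins. XPB opens DNA at promoters, and both enzymes open it around damaged bases during repair. The kinase module, in which cyclin H (CCNH) and the assembly factor MAT1 (MNAT1) activate CDK7, phosphorylates the tail of RNA polymerase II and also activates cell cycle kinases.

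GTF2H2, the member with the lowest log2 fold change, has a near-identical copy on the same chromosome, GTF2H2C, which is not among the subunits listed. The coding sequences of 2 annotated transcripts of equal length (1185 bases, GENCODE release 29) differed at 4 bases, an identity of 99.7%. Coding bases 394 to 453 (60 bases) are shown because they bear on which reads can be told apart; capitals mark the 2 bases that differ.
GTF2H2: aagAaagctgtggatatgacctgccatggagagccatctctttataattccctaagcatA
GTF2H2C: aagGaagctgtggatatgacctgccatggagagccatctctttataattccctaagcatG
Upstream of the annotated starts, the RefSeq windows (GRCh38.p14) differed at 1 of 220 aligned bases. The last 200 of these are shown, from chr5:71067707-71067906 on the minus strand for GTF2H2 and chr5:69559991-69560190 on the plus strand for GTF2H2C. Capitals mark the differing base, at position 37 counted from 1 at the 5′ end, and the letters CTTCCGG, the reverse complement of the ETS family motif CCGGAAG.
GTF2H2: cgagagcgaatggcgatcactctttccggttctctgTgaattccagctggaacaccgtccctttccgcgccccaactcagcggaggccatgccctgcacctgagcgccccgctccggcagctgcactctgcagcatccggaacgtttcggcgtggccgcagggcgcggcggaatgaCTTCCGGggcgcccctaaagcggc
GTF2H2C: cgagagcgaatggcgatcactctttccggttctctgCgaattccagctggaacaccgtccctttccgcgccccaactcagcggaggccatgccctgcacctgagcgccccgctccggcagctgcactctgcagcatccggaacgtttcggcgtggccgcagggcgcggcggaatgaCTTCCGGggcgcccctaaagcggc
These stretches show how little sequence separates the copies. Of the distinct 50-base words in annotated GTF2H2 transcripts, 54.6% also occurred in GTF2H2C and 37.3% in the pseudogene GTF2H2B, which was not used here. The values of GTF2H2 and GTF2H2C are for that reason uncertain, since reads can be divided between them or dropped in counting.

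Windows of 300 bases around the members' annotated starts, mostly upstream but reaching past the start, were searched on both strands for 8 short motifs. In the windows of ERCC2, GTF2H1 and GTF2H3, 0 upstream bases were free of annotated exons of any gene. CCGGAAG was found in 4 of the 10 members (ERCC3, GTF2H1, GTF2H2 and GTF2H3), against 12.2% of 27305 genes with windows of the same length. For the 3 not yet printed, 30 bases around the most downstream match in the window are shown with matches in capitals, from chr2:127294145-127294174 (minus strand), chr11:18322537-18322566 (plus) and chr12:123633690-123633719 (plus).
ERCC3: gagCTTCCGGattgagCCGGAAGtcccccc
GTF2H1: ccgccttgctaCTTCCGGtcacgtgccctc
GTF2H3: tccgtacccctCTTCCGGcgcactccccgc
GGGCGG, the letters of an SP1 site, was in 7 members, against 48.3% of genes. The NRF1 motif was in 2 members (ERCC2 and GTF2H5) against 6.98% of genes, CCAAT in 2 (ERCC2 and GTF2H4) against 39.7%, and CACGTG in 2 (GTF2H1 and CDK7) against 8.78%; a CACGTG match of GTF2H1 lies beside its CTTCCGG above. TATAAA, GATGGCGG and TGACGTCA were in none of the members' windows, against 14.0%, 2.85% and 2.25% of genes. The members with CCGGAAG included the one with the highest log2 fold change, ERCC3, and the 2 with the lowest, GTF2H2 and GTF2H3. A match is a description of letters and not of a bound site. The shares are over all 27305 genes with windows, more than the 20263 genes in the deposited tables. They thus include genes not tested here, and nothing is read from the differences.

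All 10 members passed the count filter, with 318 to 5364 counts per library. Across the 6 libraries the total counts lay between 38161544 and 42553688. With edgeR's quasi-likelihood test on counts, 759 of 13543 genes were called at an adjusted p under 0.05, 5.60% of those tested, of which 484 were higher and 275 lower with overexpression. Against what LNCaP is known for, TRPM8, FOLH1, TMPRSS2, KLK4, KLK3 and KLK2, 6 of the 13 prostate markers checked, were at 0 counts in every library. Of the other markers, KRT8 was called higher with overexpression, but in only 2 of the 6 fits without 1 library (those without empty vector replicate 1 or 3) and not with the replicate block. Some markers of other cell types differed between the groups, and single genes made up most of the fibroblast and immune sums below. COL1A1 alone averaged 114 CPM with overexpression and 82.5 CPM with empty vector. The 8 fibroblast markers summed to 154 to 159 CPM (TMM-scaled CPM, counts relative to library size) with overexpression, against 112 to 122 CPM with empty vector, with COL1A1 and PDGFRB called higher, 4 of the 8 at or under 3 counts in every library and LUM and PDGFRA at 0. PDGFRB lost its call in all 6 fits without 1 library, and on TPM its groups overlapped and its log2 fold change turned to -0.06 at the lowest, while COL1A1 kept its call in all 6. The 8 immune markers summed to 24.5 to 29.5 CPM with overexpression, against 37.5 to 39.2 CPM with empty vector, with PTPRC, CD3E, MS4A1 and NKG7 at 0. CD68 was called lower, at 21.2 CPM with overexpression and 33.3 CPM with empty vector on average, while the other 3 of the 4 tested had positive log2 fold changes and were not called. The 6 endothelial markers summed to 7.71 to 10.2 CPM with overexpression and 9.05 to 9.72 CPM with empty vector, with none called and KDR at 0. Mitochondrial genes took 4.84% to 5.16% of counts with overexpression and 4.66% to 5.13% with empty vector. The part of these differences in the results below was not tested. In such bulk libraries fewer cells of a type and less RNA per cell cannot be told apart.

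Within TFIIH, the log2 fold change after TMM scaling was negative for 8 members and positive for 2, and most differences were small. ERCC2, one of the 2, was at -0.02 with library size only. GTF2H2 and GTF2H3, both of the core scaffold, were called lower, which 2.03% of all genes tested were, and 0 were called higher, which 3.57% of all genes tested were. Since the set was picked on this comparison, nothing is read from that count. The members' median log2 fold change was -0.10, against -0.0035 over all genes tested, and they ranged between -0.45 for GTF2H2 and 0.12 for ERCC3.

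**Figure D1:**
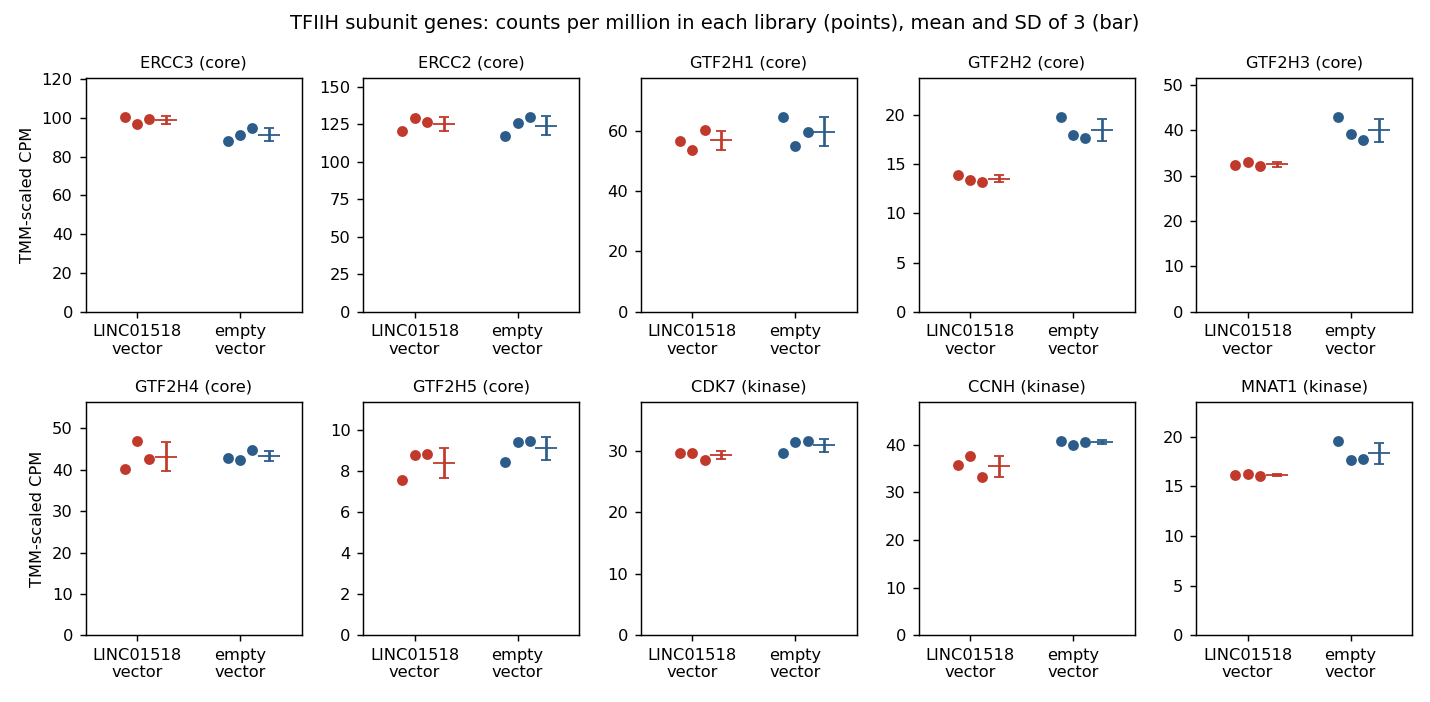
TMM-scaled CPM (vertical axis, from 0) of each TFIIH subunit gene in 3 libraries with the LINC01518 vector (red, left) and 3 with empty vector (blue, right); points are libraries, bars the mean and SD. GTF2H2, GTF2H3, CCNH and MNAT1 had all 3 libraries with the LINC01518 vector below those with empty vector, ERCC3 had them above, and the other 5 genes overlapped. Of all genes tested, 15.5% lay apart in the lower and 15.9% in the higher direction. The set was picked on this comparison, so nothing is read from these separations.

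ERCC3 (chromosome 2, 127257290 to 127294176, GRCh38, minus strand) encodes XPB. It had 100.4, 96.7 and 99.6 CPM with overexpression, against 88.1, 91.0 and 94.8 CPM with empty vector. All 3 overexpression libraries lay above all 3 empty vector libraries. Groups lay apart in this direction for 15.9% of all genes tested. The log2 fold change was 0.12 (SE 0.0476), the highest of the set. ERCC2 (chromosome 19, 45349837 to 45370918, minus strand), the gene of XPD, had 120.2, 129 and 126 CPM with overexpression, against 116.96, 126 and 129.6 CPM with empty vector. The groups overlapped, and the log2 fold change was 0.014 (SE 0.0553).

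GTF2H2 (chromosome 5, 71032670 to 71067689, minus strand) encodes the scaffold subunit that binds and stimulates XPD. It had 13.9, 13.4 and 13.2 CPM with overexpression, against 19.8, 18.0 and 17.6 CPM with empty vector. The overexpression libraries were tightly grouped and lay below every empty vector library, of which replicate 1 was the highest. The means were 13.5 ± 0.359 CPM with overexpression and 18.5 ± 1.14 CPM with empty vector (SD, n = 3 each), a ratio of 0.731 and a log2 fold change of -0.45 (SE 0.0783). GTF2H3 (chromosome 12, 123633739 to 123662606, plus strand), the gene of another scaffold subunit, which binds the GTF2H2 protein, had 32.3, 33.1 and 32.1 CPM with overexpression, against 42.8, 39.2 and 37.9 CPM with empty vector. Its groups were apart as well, and again empty vector replicate 1 was highest. The means were 32.5 ± 0.531 CPM with overexpression and 40.0 ± 2.57 CPM with empty vector (SD, n = 3 each), with a log2 fold change of -0.30 (SE 0.0677). Groups lay apart in this lower direction for 15.5% of all genes tested. Both calls rest on the values that chose the set and were easily lost: of the 6 fits without 1 library, GTF2H2 was called only without empty vector replicate 3 and GTF2H3 in none, and neither was called with the replicate block or on the deposited TPM. The log2 fold changes stayed between -0.48 and -0.40 for GTF2H2 and between -0.34 and -0.25 for GTF2H3 without 1 library.

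GTF2H2C (chromosome 5, 69560208 to 69594723, plus strand) had 614, 423 and 488 counts with overexpression, against 827, 783 and 743 with empty vector. Its libraries were apart in the same direction as those of GTF2H2, and the log2 fold change was -0.59 with an SE of 0.116 (edgeR adjusted p = 0.0308). Since the 2 genes can share reads, this is not an independent result. Without 1 library its edgeR adjusted p lay between 0.0367, without overexpression replicate 1, and 0.0907, and the call was lost without any of the other 5 libraries. On log2(TPM + 1) its log2 fold change was -0.35, and it was not called on TPM. GTF2H2 made up 48.7%, 55.5% and 50.6% of the summed counts of both copies with overexpression, against 49.5%, 49.5% and 47.9% with empty vector. The high share in overexpression replicate 2 stands beside the lowest GTF2H2C count. Summed, the copies had 28.6, 24.1 and 26.1 CPM with overexpression and 39.9, 36.4 and 36.8 CPM with empty vector, a log2 fold change of -0.52 (SE 0.0801). The sum does not depend on how reads were divided between these 2 genes, but reads dropped in counting are missing from it too. Its groups were apart, as in this lower direction for 15.5% of all genes tested. It holds GTF2H2, and the set was picked on this comparison, so nothing is read from that separation.

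**Figure D2:**
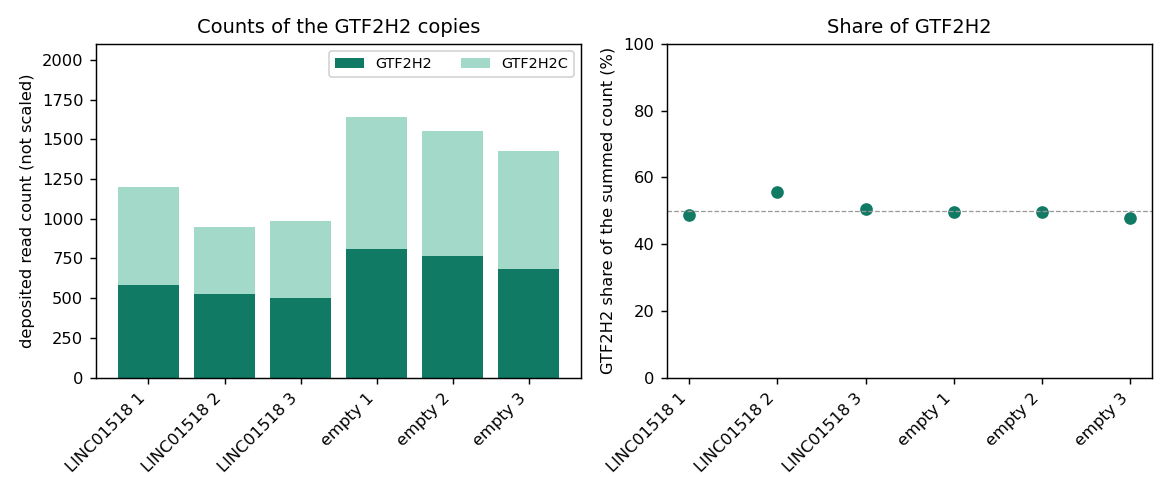
Left, deposited counts (not scaled) of GTF2H2 and GTF2H2C stacked for each library; right, GTF2H2 as a percentage of the summed count. The 3 libraries with the LINC01518 vector held 951 to 1197 summed counts, against 1425 to 1638 with empty vector, while the share of GTF2H2 lay between 47.9% and 55.5%.

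The genes next to the copies were looked at after the values of GTF2H2 were seen. Of the 8 tested neighbours, the nearest 2 on each side of each copy, edgeR called 0 (adjusted p of 0.0889 to 0.89). SMN1, the second gene before GTF2H2 and itself one of a near-identical pair, had a log2 fold change of -0.24, while SMN2 was at 0.02 on counts, NAIP at 0.19, BDP1 at -0.19 and MCCC2 at 0.17. On CPM the groups lay apart for SMN1, lower, and MCCC2, higher, as in either direction for 31.4% of all genes tested. On TPM, SMN2 was lower in all overexpression libraries, with 58.9, 60.96 and 60.6 TPM with overexpression, against 96.1, 82.8 and 80.6 TPM with empty vector. The log2 ratio of its count to its TPM, which follows the assigned transcript length, differed too. That ratio was 4.97, 4.84 and 4.80 with overexpression, against 4.34, 4.43 and 4.33 with empty vector.

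The other scaffold genes of the core had overlapping groups. GTF2H1 (chromosome 11, 18322295 to 18367044, plus strand), which encodes the subunit that repair and transcription factors dock on, had 56.5, 53.8 and 60.2 CPM with overexpression, against 64.5, 54.9 and 59.5 CPM with empty vector (log2 fold change -0.07, SE 0.075). Its highest library was empty vector replicate 1, as for GTF2H2 and GTF2H3. GTF2H4 (chromosome 6, 30908184 to 30914106, plus strand), the gene of the subunit that anchors XPB, had 40.1, 46.9 and 42.5 CPM with overexpression, against 42.9, 42.5 and 44.7 CPM with empty vector (log2 fold change -0.0047, SE 0.0729). GTF2H5 (chromosome 6, 158168350 to 158199344, plus strand), which encodes the smallest subunit, mutated in a form of trichothiodystrophy, had 7.59, 8.82 and 8.83 CPM with overexpression. With empty vector it had 8.48, 9.43 and 9.48 CPM, so that the groups overlapped through empty vector replicate 1 (log2 fold change -0.12, SE 0.102).

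In the kinase module, all 3 genes had negative log2 fold changes. CCNH (chromosome 5, 87318416 to 87413019, minus strand), the cyclin gene, had 35.7, 37.6 and 33.1 CPM with overexpression, against 40.8, 40.0 and 40.6 CPM with empty vector. The empty vector libraries lay within 1 CPM of each other and above all overexpression libraries (log2 fold change -0.19, SE 0.0664). MNAT1 (chromosome 14, 60734742 to 60969953, plus strand) had 16.1, 16.2 and 16.1 CPM with overexpression, against 19.6, 17.6 and 17.8 CPM with empty vector, and its groups were apart too (log2 fold change -0.18, SE 0.0748). Such a separation in the lower direction was seen for 15.5% of all genes tested. CDK7 (chromosome 5, 69234795 to 69277430, plus strand), the kinase gene itself, had 29.7, 29.6 and 28.6 CPM with overexpression, against 29.6, 31.4 and 31.6 CPM with empty vector. Its groups overlapped (log2 fold change -0.08, SE 0.0611). Empty vector replicate 1 was the highest library of MNAT1 and, by little, of CCNH. Without that library, the log2 fold changes were -0.13 for MNAT1, -0.18 for CCNH and -0.11 for CDK7. CDK7 and CCNH share chromosome 5 with the GTF2H2 copies.

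**Figure D3:**
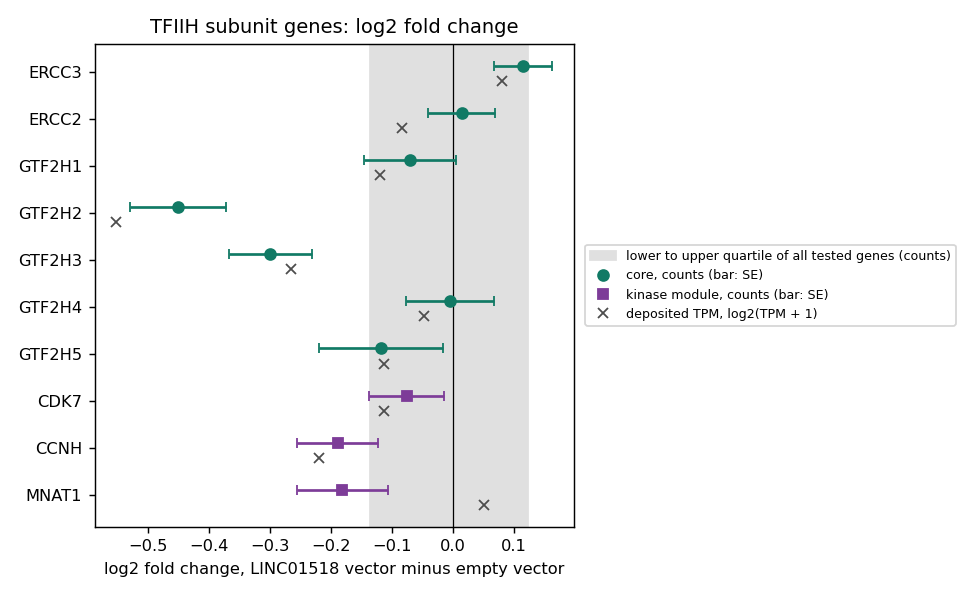
Log2 fold change (LINC01518 vector minus empty vector) of each TFIIH subunit gene from counts (circles, core; squares, kinase module; bars, SE) and from the deposited TPM (crosses, log2(TPM + 1) scale); the grey band spans the lower to upper quartile of all tested genes. GTF2H2 and GTF2H3 lie farthest to the left, CCNH and MNAT1 lie left of the band on counts, and MNAT1 changes side on TPM.

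The modules were compared by their members' values. The median log2 fold change was -0.07 for the core and -0.18 for the kinase module. The mean log2 CPM of the core exceeded that of the kinase module by 0.52, 0.55 and 0.63 with overexpression, against 0.53, 0.53 and 0.54 with empty vector. The groups overlapped, so the balance of the modules did not differ beyond the spread of these libraries on this scale; on log2 TPM the differences were -0.62, -0.61 and -0.42 with overexpression and -0.59, -0.42 and -0.40 with empty vector. A split within the core, made after its values were seen and therefore not tested, lay apart. It partly restates the rule that picked the set, since several GTF2H genes were lower, so its separation supports nothing. The mean log2 CPM of ERCC3 and ERCC2 exceeded that of the 5 GTF2H genes by 2.20, 2.16 and 2.17 with overexpression, against 1.82, 1.96 and 1.99 with empty vector.

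Levels of different genes were compared on the deposited TPM, which are scaled per length. With overexpression the order was ERCC3 (69.4 ± 1.17 TPM), ERCC2 (63.6 ± 3.23), CDK7 (48.8 ± 3.89), GTF2H4 (48.8 ± 4.50), CCNH (48.4 ± 3.70), GTF2H1 (42.2 ± 2.42), GTF2H3 (22.3 ± 2.36), MNAT1 (16.8 ± 3.39), GTF2H2 (8.31 ± 0.747) and GTF2H5 (2.16 ± 0.201; SD, n = 3 each). Here CDK7, GTF2H4 and CCNH each overlapped the next in order over libraries, and the others lay above the next. With empty vector the same 6 genes formed the upper part, with ERCC2 at 67.4 ± 2.40 and ERCC3 at 65.6 ± 0.982 TPM overlapping at its head. There CCNH (56.5 ± 0.394 TPM) preceded CDK7 (52.8 ± 3.59), GTF2H4 (50.4 ± 0.867) and GTF2H1 (46.0 ± 4.31). GTF2H3 (27.0 ± 1.96), MNAT1 (16.3 ± 4.17), GTF2H2 (12.7 ± 1.54) and GTF2H5 (2.42 ± 0.1) followed (SD, n = 3 each). The ranges of MNAT1 and GTF2H2 over the empty vector libraries overlapped, but within each library of both groups GTF2H2 lay below MNAT1. The highest subunit level was 32.1 times the lowest with overexpression and 27.9 times with empty vector, and the median gene tested had 18.8 and 19.6 TPM. The place of GTF2H2 in both orders is uncertain, since its reads can be divided with GTF2H2C or dropped in counting. GTF2H2C, outside the set, had 12.5 ± 0.938 TPM with overexpression and 16.1 ± 1.92 TPM with empty vector (SD, n = 3 each).

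**Figure D4:**
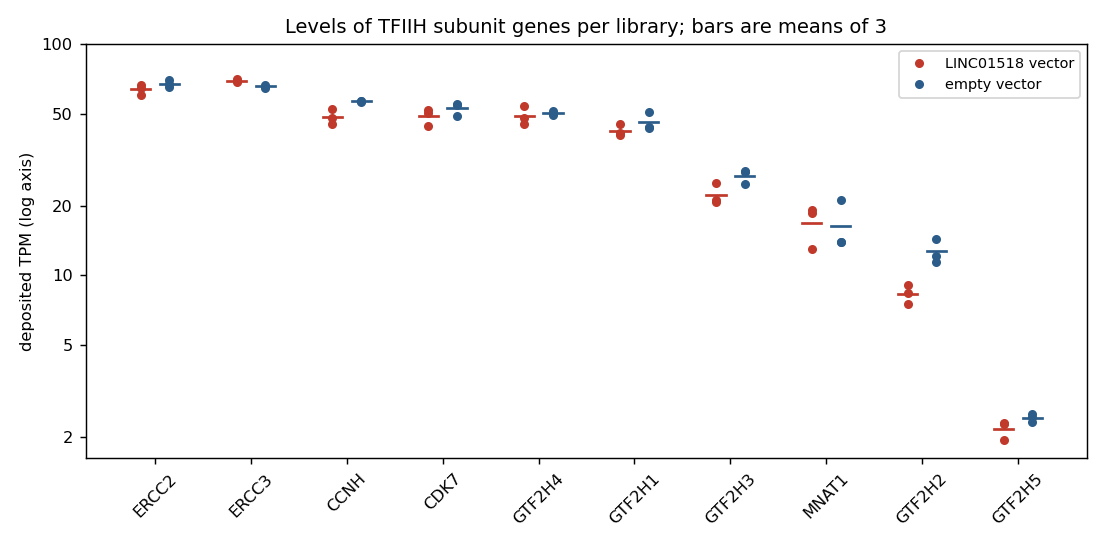
Deposited TPM (log axis) of each TFIIH subunit gene per library, ordered by the mean with empty vector; red points on the left of each pair are the LINC01518 vector, blue points on the right the empty vector, and bars are means of 3. Levels ran between 1.93 TPM for GTF2H5 and 70.6 TPM for ERCC3, with GTF2H2 lower with the LINC01518 vector in all 3 libraries.

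Counts and TPM did not give the same picture for every member. MNAT1 had 19.1, 18.5 and 12.9 TPM with overexpression, against 21.1, 13.9 and 13.9 TPM with empty vector. Its TPM split the libraries of both groups, its groups overlapped, and its log2 fold change on log2(TPM + 1) was 0.05. The ratio of count to TPM, which follows the transcript length assigned to a gene, lay between 34.6 and 54.0 for MNAT1 across libraries, the widest spread of the set (SD 0.27 on the log2 scale, against 0.06 to 0.14 for the other members). GTF2H3 had 21.3, 25.02 and 20.7 TPM with overexpression, against 27.8, 28.3 and 24.7 TPM with empty vector, so that its groups overlapped on TPM through overexpression replicate 2 and empty vector replicate 3. GTF2H2 had 9.03, 8.37 and 7.54 TPM with overexpression, against 14.4, 12.2 and 11.4 TPM with empty vector, and its groups were apart. GTF2H5 and CCNH were lower in all overexpression libraries on TPM, and ERCC3 was higher. On CPM, groups lay apart in either direction for 31.4% of all genes tested. The share on TPM was not counted, so nothing is read from these separations. ERCC2 had a log2 fold change of -0.08 on log2(TPM + 1), against 0.014 on counts.

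Some members overlap other genes, and no source used here gives the strand setting of the counting. VARS2, a mitochondrial tRNA synthetase gene on the same strand, covers 79.0% of the annotated exon bases of GTF2H4, so its counts are uncertain; VARS2 had a log2 fold change of 0.02 and GTF2H4 of -0.0047. RASA1 on the opposite strand covers 12.7% of the exon bases of CCNH, with 878 to 969 counts per overexpression library and 899 to 1067 per empty vector library, and a log2 fold change of -0.05. KLC3 covers 8.29% of the exon bases of ERCC2 with 87 to 104 counts per library over all 6, and EIF2B1 covers 0.701% of those of GTF2H3. None of these 4 overlapping genes was called by edgeR (adjusted p of 0.474 to 0.908). The share of annotated 50-base words found in other genes was 72.7% for GTF2H4, all in VARS2, 18.4% for CCNH, 4.50% for ERCC2, and 3.16% for CDK7, all in a pseudogene.

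Genes that work with TFIIH lay outside the set and were read from the same edgeR fit across all genes. Their lists, too, were drawn up with earlier results of these data known. Of 31 genes of nucleotide excision repair and its gap filling, 3 rose and 0 fell, against 3.57% higher and 2.03% lower of all genes tested, and the median log2 fold change was 0.02. POLD1, the catalytic subunit gene of DNA polymerase delta, had 96.3, 100.2 and 106 CPM with overexpression, against 70.9, 75.8 and 85.5 CPM with empty vector. All overexpression libraries were higher (log2 fold change 0.38, SE 0.0757, edgeR adjusted p = 0.0314). POLD3, an accessory subunit gene of the same polymerase, averaged 116.6 ± 3.12 CPM with overexpression and 98.4 ± 4.80 CPM with empty vector (edgeR adjusted p = 0.0379; SD, n = 3 each). XRCC1, a scaffold gene of single-strand break repair, averaged 56.5 ± 2.54 CPM with overexpression and 45.8 ± 2.91 CPM with empty vector (edgeR adjusted p = 0.0418). These 3 act after excision, in filling and sealing the gap, and also in other repair or in replication. Of the damage recognition and incision genes, XPC had a log2 fold change of 0.07, XPA of -0.05, ERCC1 of 0.04 and ERCC5 of -0.27, and none of these was called. DESeq2 called 4 of the 31, limma-trend on TPM 0 and edgeR with library size only 1.

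Of 12 RNA polymerase II subunit genes, POLR2H rose, with 59.3, 53.6 and 54.4 CPM with overexpression, against 47.3, 44.5 and 46.7 CPM with empty vector (log2 fold change 0.27, SE 0.0618, edgeR adjusted p = 0.0448). The list's median was 0.03, and 3.57% of all genes tested were called higher. DESeq2 called 1 gene of this list, and edgeR with library size only, edgeR with the replicate block and limma-trend on TPM called 0. Of 32 Mediator genes, MED24 rose and 0 fell, a share near the 3.57% called higher over all genes tested, with a median of -0.02. MED24 averaged 61.1 ± 3.89 CPM with overexpression and 48.4 ± 1.36 CPM with empty vector (SD, n = 3 each; log2 fold change 0.34, edgeR adjusted p = 0.0272). Without 1 library, the edgeR adjusted p lay between 0.0751 and 0.146 for POLR2H, 0.0437 and 0.101 for MED24, 0.0222 and 0.107 for POLD1, 0.0372 and 0.123 for POLD3, and 0.0389 and 0.137 for XRCC1. POLR2H thus lost its call in all 6 such fits, and MED24 in all but that without overexpression replicate 2. POLD1 and XRCC1 lost it in all but that without empty vector replicate 3, and POLD3 in all but that without empty vector replicate 1.

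The remaining lists had 0 genes called by edgeR. Of the 8 other general transcription factor genes, 7 had a negative log2 fold change and the median was -0.08; 2 were called by DESeq2 and 0 by limma-trend on TPM. The 2 genes at an unadjusted p under 0.05 were GTF2F1, at 183.8 ± 6.02 CPM with overexpression and 163.8 ± 3.48 CPM with empty vector, and GTF2E1, whose product recruits TFIIH to the promoter, at 37.0 ± 1.80 CPM with overexpression and 43.2 ± 1.22 CPM with empty vector (SD, n = 3 each; edgeR adjusted p = 0.0723 and 0.085). Of 13 TAF genes of TFIID, 11 had a negative value, with a median of -0.06, 2 at an unadjusted p under 0.05 (TAF13 at -0.20 and TAF6 at 0.15) and 0 called by DESeq2 or on TPM. Over all genes tested, 50.8% had a negative value and 23.6% an unadjusted p under 0.05. Of 10 genes of iron-sulfur loading and direct TFIIH partners, 3 reached an unadjusted p under 0.05, namely MMS19, GTF2E1 and ERCC5; DESeq2 called 2 and limma-trend on TPM 0. MMS19, which helps to load the iron-sulfur cluster of XPD, averaged 100.6 ± 2.77 CPM with overexpression and 88.2 ± 4.08 CPM with empty vector (edgeR adjusted p = 0.0767). Of 11 genes of other transcription kinases and their regulators, HEXIM1 (log2 fold change 0.21, edgeR adjusted p = 0.0896) was the gene with an unadjusted p under 0.05; 1 was called by DESeq2 and 0 by limma-trend on TPM, and CCNK was at 0.11. The cell cycle kinase genes CDK1, CDK2, CDK4 and CDK6, whose products the kinase module activates, had a median of 0.01 and 0 at an unadjusted p under 0.05, and DESeq2 and limma-trend on TPM called 0. CDK4 was at 0.13 and CDK6 at -0.05.

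**Figure D5:**
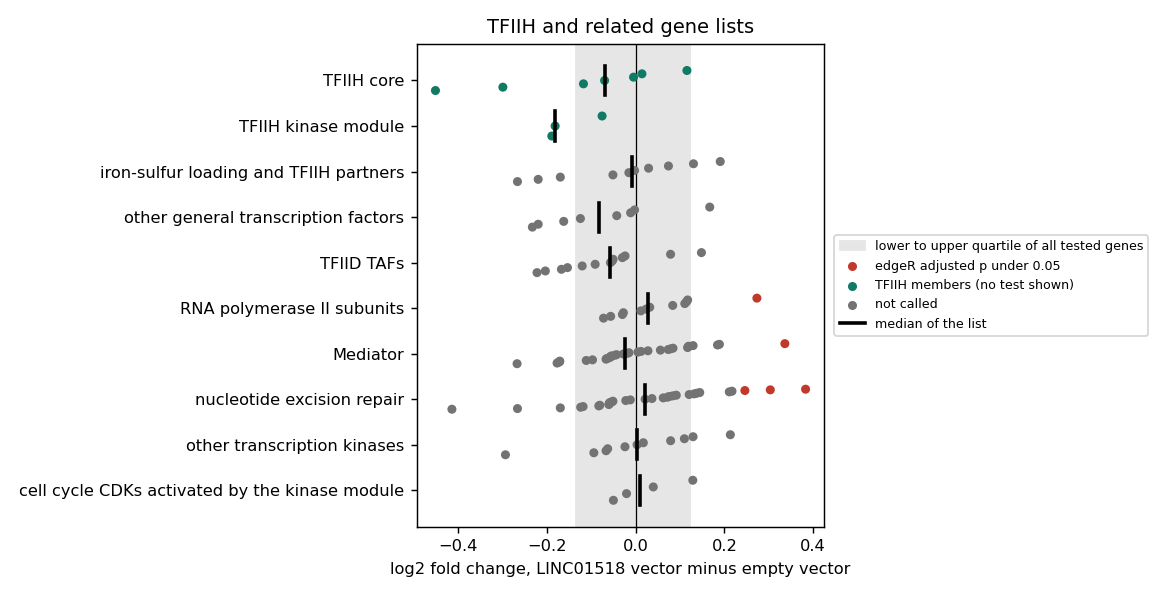
Log2 fold change (LINC01518 vector minus empty vector) of single genes (points) in the TFIIH modules and related lists, with list medians as black bars; red points were called by edgeR, grey points were not, TFIIH members are green with no test shown, and the grey band spans the lower to upper quartile of all tested genes. The called genes of the related lists, POLR2H, MED24, POLD1, POLD3 and XRCC1, all lie to the right of 0. Over all genes tested, 3.57% were called higher and 2.03% lower. GTF2H2 and GTF2H3 lie to the left, from which nothing is read, since the set was picked on this comparison.

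The 5 genes whose centred log2 CPM over the 6 libraries lay closest to the mean profile of the core were RBM8A, RNF144B, VAMP3, TMEM230 and ASTN2, with root-mean-square differences of 0.00934 to 0.0169. The core profile itself was -0.10, -0.03 and -0.04 in the overexpression libraries and 0.07, 0.04 and 0.07 in the empty vector libraries. The genes share these libraries and their scaling with the members, and the likeness is a description over 6 points.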

How the data were processed

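RNA sequencing of total RNA gave 6 libraries, 3 per group. Per the submitters' processing notes, Trimmomatic 0.36, HISAT2, featureCounts of Subread 1.5.1 and DESeq were used with the build GRCh38; no source used here gives the annotation release or strand setting. The deposited counts were whole numbers with no normalization. The deposited TPM, from a tool not given in the sources used here, were used for levels and in alternative fits. All 6 columns of each table were matched to samples by name. Symbols were found for 20148 of 20263 genes. Positions came from GENCODE release 29 (GRCh38), upstream sequences from RefSeq (GRCh38.p14).

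EdgeR 4.0.16 in R 4.3.3 was fitted to all genes kept by filterByExpr (minimum count 10, minimum total 15), with TMM scaling, a robust quasi-likelihood model with group as its only term, and Benjamini-Hochberg adjustment over 13543 genes. The SE was the log2 fold change divided by the square root of F. TPM were tested with limma-trend (limma 3.58.1) on log2(TPM + 1), with genes of mean TPM of at least 1. DESeq2 1.42.0, other scalings and filters, a replicate block and fits without each library were alternatives. A count of 0 allows up to 3 counts, or 0.0705 to 0.0786 CPM, for counting error only. The fits were tested on simulated data with known changes, with 50 genes per size of change. EdgeR recovered 8% of 1.25-fold, 66% of 1.5-fold, 66% of 2-fold and 98% of 4-fold changes, and called 15 of 13343 unchanged genes. A gene not called here is therefore not shown to be unchanged. Every pair of libraries differed by more than counting noise (chi-square per degree of freedom of at least 19.8).

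The members and the gene lists were chosen with earlier results of these data known. Named genes were all members, GTF2H2C, up to 6 called genes per list or, with none called, up to 2 of smallest p, and the 5 genes most like the core profile (log2 of CPM + 0.5). Other genes named were chosen after their values were seen or for their position or role.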

Additional observations from a re-analysis of the deposited data

How the results depend on the processing

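Of 484 genes called higher and 275 called lower, DESeq2 gave 784 and 532, limma-trend 120 and 148 on log2(TPM + 1), 106 and 137 on log2(TPM + 0.1) and 74 and 78 without a filter on low TPM. With the replicate number as a block, edgeR called 154 higher and 78 lower. Same-numbered libraries deviated from their group means with correlations of 0.0367, 0.0547 and 0.0449, all under 0.1, so the labels' numbers were not taken as pairs, although each overexpression library correlated best with its own number. Without 1 library, edgeR called 131 to 287 higher and 62 to 171 lower. A fit with fewer libraries detects less. With library size only, it called 346 higher and 382 lower. The core median log2 fold change of -0.07 was -0.10 with library size only, -0.11, -0.12 and -0.11 on the 3 TPM settings, and -0.113 to -0.0282 without 1 library. The kinase module median of -0.18 was -0.11 on all 3 TPM settings, and -0.20 to -0.13 without 1 library. The cause was not tested. RLE scaling, both count filters and the sum of GTF2H2 and GTF2H2C, which was chosen after the data were seen, moved neither median by more than the spread between replicates.

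GTF2H2 and GTF2H3 kept a negative value in all 16 alternatives, ERCC2 changed sign in 6, GTF2H4 in 3 and MNAT1 in 3, the TPM settings. Members with few counts, such as GTF2H5, are the least precise.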
